A study of Danio rerio with 2 samples.

Results

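Genes of protein acylation, ion exchange, lipid transport and protein acetylation at the Golgi apparatus and other membranes were followed through every intron listed for them. They are zdhhc5a (NM_001039640), zdhhc17 (NM_001128382), slc9a7 (NM_001030077), tmem30c (NM_200596) and naa60 (NM_001082872). They were picked by their Refseq IDs, with earlier results on intron retention in these libraries known, and make up 5 of 10223 genes with a gene value and 24 of 55660 listed introns. Whole zebrafish larvae (Danio rerio) at 108 hours post-fertilization were compared as 1 library of homozygous clbn (caliban, allele clbns841) mutants and 1 library of homozygous wildtype larvae. Each library was made from a pool of about 60 larvae that had been genotyped singly. All larvae were kept at 28.5 °C in water with 0.003% PTU from 24 hours on, which blocks pigment. With 1 pooled library of each genotype no value has a replicate error. Intervals in brackets are 95% intervals of counting error only, and amplified reads are not independent molecules.

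In a zebrafish cell most introns are removed by the major spliceosome, and a rare class of minor (U12-type) introns by a separate one. The gene mutated in clbn is, as background, rnpc3, whose product is a protein component of the minor spliceosome. Transcripts with a minor intron usually have a single one among many major introns. When such an intron stays in the transcript, reads appear between its flanking exons. The class of each intron is not given in the table, and splice site sequences were not analysed here.

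The products of the 5 genes work at membranes in mammals, where most of them were studied. The zdhhc genes code for palmitoyltransferases, which attach fatty acids to cysteines of other proteins and so hold them at membranes. ZDHHC17 is a Golgi enzyme with ankyrin repeats that binds huntingtin, and ZDHHC5 acts mainly at the plasma membrane. SLC9A7 (NHE7) exchanges sodium or potassium for protons in the trans-Golgi network and so takes part in setting its pH. Proteins of the TMEM30 (CDC50) family are the partner subunits of P4-ATPases, the flippases that move phospholipids across a membrane. NAA60 (NatF) sits on the Golgi and acetylates the N-termini of transmembrane proteins that face the cytosol.

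The mutant library held 25718058 reads and the wildtype library 28309779 reads, with a median of 7 reads per listed intron in each. Listed introns took 7.06% of reads in the mutant library and 6.97% in the wildtype library. For rnpc3 109 reads were recovered in the mutant library and 273 in the wildtype library, a ratio of gene values of 0.440 (0.349 to 0.551). That level does not by itself test the genotype labels.

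In each of the 5 genes 1 intron held many more reads in the mutant library, and it is called the leading intron here. Together the 5 leading introns had 527 reads in the mutant library and 11 in the wildtype library. The other 19 listed introns of the same genes had 187 reads in the mutant library and 138 in the wildtype library. Since the genes were chosen from this contrast, these values are a description and carry no test.

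**Figure D1:**
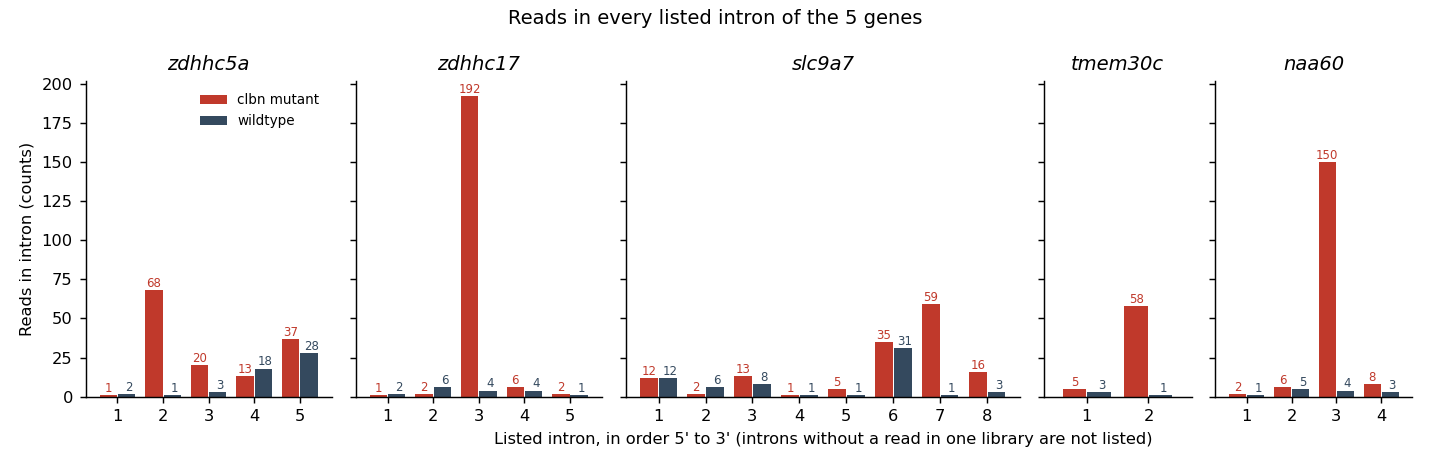
Reads (counts, vertical axis) in each of the 24 listed introns, in order from the 5′ to the 3′ end of each gene, in the clbn mutant library (red, left bar) and the wildtype library (dark, right bar). Each gene has 1 intron with 58 to 192 mutant reads against 1 to 4 wildtype reads, and no other listed intron exceeds 37 reads in either library.

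Retention was measured as intronic reads over gene reads, mutant over wildtype. The gene reads were recovered from the deposited gene values. Positions are on the Zv9 genome build, counted from 1, and all 5 genes lie on the plus strand. A log2 ratio has 0.5 reads added to each count, while a plain ratio has none. The retention coefficient is the level of an intron, in reads scaled by unique intron length and library size (RPuKM, as in RPKM), divided by the gene value. It would be near 1 for an intron whose level equals the gene value.

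The palmitoyltransferase gene zdhhc5a had its leading intron at chromosome 1, 45002704 to 45004247, the second of 5 listed introns. This intron held 68 reads in the mutant library and 1 in the wildtype library, a retention ratio of 65.3 (11.3 to 2620) and a log2 ratio of 5.46. Its retention coefficient was 0.190 in the mutant library and 0.00291 in the wildtype library. The intron next to it on the 3′ side (45004351 to 45004721), which begins 103 bp further on, also had more mutant reads, with 20 against 3 in wildtype and a ratio of 6.40 (1.89 to 33.7). That short intron of 371 bp reached a coefficient of 0.211 in the mutant library, the highest in the gene, against 0.0329 in the wildtype library. The remaining introns of zdhhc5a showed no such gap between libraries. The first had 1 mutant and 2 wildtype reads, the fourth 13 and 18, and the fifth 37 and 28, with ratios of 0.480, 0.694 and 1.27 whose intervals all include 1.

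In zdhhc17, the gene of the huntingtin-binding palmitoyltransferase, the leading intron was the third of 5 (chromosome 4, 2370689 to 2374270). It held 192 reads in the mutant library and 4 in the wildtype library, the most mutant reads of any intron of the 5 genes. The retention ratio was 47.9 (18.1 to 179) and the log2 ratio 5.42. The coefficient was 0.343 in the mutant library against 0.00716 in the wildtype library. The other introns of zdhhc17 had few reads in both libraries, 1 to 6 each, and introns 1, 4 and 5 are only 337, 375 and 85 bp long. Their coefficients, with that of intron 2, were 0.0157 to 0.125 in the mutant library and 0.0316 to 0.0626 in the wildtype library. The intron before the leading one had 2 mutant and 6 wildtype reads, a ratio of 0.333 (0.0327 to 1.88). The intron after the leading one had 6 and 4, a ratio of 1.496 (0.352 to 7.26). So 94.6% (90.5 to 97.3%) of the reads in listed introns of zdhhc17 lay in the leading intron in the mutant library. In the wildtype library this share was 23.5% (6.81 to 49.9%). The leading intron also has the most unique bases, 2971 bp against 85 to 658 bp in the others.

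The exchanger gene slc9a7 is the longest of the set as listed, with 8 introns of 302 to 15420 bp. Its leading intron was the seventh (chromosome 6, 37531806 to 37535233), with 59 reads in the mutant library and 1 in the wildtype library. The retention ratio was 80.8 (13.8 to 3251) and the log2 ratio 5.76, with coefficients of 0.141 in the mutant library and 0.00175 in the wildtype library. The eighth and last listed intron (37535340 to 37546862), 106 bp further on, had 16 mutant and 3 wildtype reads and a ratio of 7.31 (2.07 to 39.3). These are 0.0591 RPuKM in the mutant library and 0.0101 RPuKM in the wildtype library over 11523 bp, a level far below that of the leading intron in the mutant library. The 2 introns of slc9a7 with the most wildtype reads differed little between libraries relative to the gene. The sixth, of 15420 bp, had 35 mutant and 31 wildtype reads (ratio 1.55, 0.914 to 2.63), and the first had 12 in each (ratio 1.37, 0.558 to 3.36). The third had 13 mutant and 8 wildtype reads, a ratio of 2.23 (0.848 to 6.24). Introns 2, 4 and 5 had at most 6 reads in either library. All listed introns of slc9a7 but the leading one summed to 84 mutant and 62 wildtype reads, a retention ratio of 1.86 (1.29 to 2.67). Part of each retention ratio of slc9a7 comes from fewer gene reads in the mutant library (gene value ratio 0.803). Scaled by the library totals instead, the leading intron had a ratio of 64.9 (11.2 to 2608) and the eighth 5.87 (1.68 to 31.4).

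Only 2 introns were listed for tmem30c, the flippase partner. The second (chromosome 9, 31035626 to 31037194) had 58 reads in the mutant library and 1 in the wildtype library, the largest retention ratio of the 24 introns at 96.2 (16.4 to 3870), with a log2 ratio of 6.01. Its mutant coefficient of 0.439 was also the highest of the 24, against 0.00456 in the wildtype library. The first intron had 5 mutant and 3 wildtype reads, a ratio of 2.76 (0.533 to 17.9). Part of the high ratio comes from fewer gene reads in the mutant library. Scaled by the library totals instead, the second intron had a ratio of 63.8 (11.01 to 2565).

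For naa60, the N-terminal acetyltransferase gene, the third of 4 listed introns led (chromosome 3, 27943502 to 27945686). It held 150 reads in the mutant library and 4 in the wildtype library, a retention ratio of 60.8 (22.9 to 228) and a log2 ratio of 5.76. With scaling by the library totals the ratio was 41.3 (15.8 to 153). The coefficient was 0.349 in the mutant library and 0.00573 in the wildtype library. The fourth intron (27945870 to 27946819), 183 bp further on, had 8 mutant and 3 wildtype reads, a ratio of 4.33 (1.03 to 25.4) that is 2.94 (0.705 to 17.2) with scaling by the library totals. The first and second introns had 2 and 6 mutant reads, against 1 and 5 wildtype reads.

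Of the 24 introns, 11 had at least 20 reads over both libraries, the minimum for a count of changes, and the other 13 had fewer. Of these 11, 7 passed 2-fold higher in the mutant library and 0 passed 2-fold lower. Over all genes, 20223 introns had as many reads, of which 8.09% passed 2-fold in the higher direction and 6.52% in the lower. The 7 include all 5 leading introns, the third intron of zdhhc5a and the third of slc9a7. The leading introns passed the minimum by their mutant reads alone, and the genes were chosen from this contrast, so nothing is read from that count. The third intron of slc9a7 was the nearest inside the 2-fold line, at a log2 ratio of 1.12, and the sixth of slc9a7 the nearest outside it, at 0.63.

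By log2 retention ratio the leading introns stood at places 7 (tmem30c), 9 (slc9a7), 10 (naa60), 12 (zdhhc5a) and 13 (zdhhc17) of the 20223 introns. The log2 ratio has 0.5 reads added to each count, so this order differs from that of the plain ratios. Introns without a read in one library are not listed and could not be ranked. The places of tmem30c, slc9a7 and zdhhc5a rest on 1 wildtype read each. With 0.5 reads added as well, a 16-fold lower ratio was reached by 0 introns. A 16-fold higher one was reached by 56 introns in 50 genes (0.277% of introns). Their median coefficient was 0.210 in the mutant library and 0.00521 in the wildtype library, while the median over all 20223 introns was 0.0331 in the mutant library and 0.0323 in the wildtype library. The 5 leading introns lay at percentiles 79.7 to 93.0 of the mutant coefficients and at percentiles 1.87 to 13.2 of the wildtype coefficients. These percentiles were largely set in advance. The leading introns passed the minimum of reads by their mutant reads alone, and their genes were chosen from this contrast. A low wildtype level is also part of what makes a ratio large. The percentiles are therefore a description, and no conclusion is drawn from them.

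**Figure D2:**
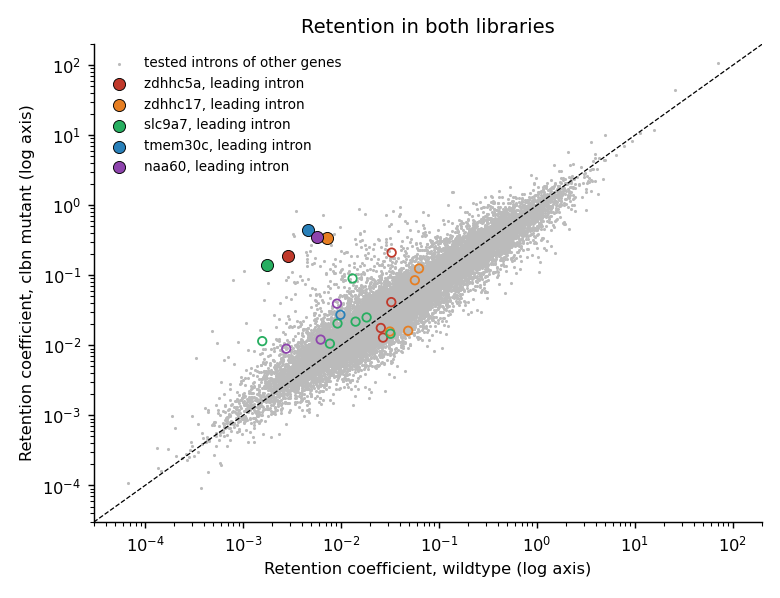
Retention coefficient (intron level over gene value) in the clbn mutant library (vertical log axis) against the wildtype library (horizontal log axis). Grey points are introns of other genes with at least 20 reads over both libraries, filled points the 5 leading introns, open circles in the same colours the 19 other listed introns of these genes, and the dashed line marks equal coefficients. The filled points lie at 0.141 to 0.439 in the mutant library and 0.00175 to 0.00716 in the wildtype library.

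The leading introns were 1544 to 3582 bp long, between percentiles 40.2 and 67.7 of the 20223 introns. The median was 2145 bp over these 20223 introns and 1936.5 bp over the 56 introns with a 16-fold higher ratio. Except in zdhhc17 and tmem30c, no leading intron was the longest or the shortest listed intron of its gene. In zdhhc17 the leading intron was the longest of 5, and in tmem30c the shorter of 2. Between 82.9% and 92.0% of their bases were unique in the genome by the authors' count. Each lay after the first listed intron of its gene, and in tmem30c it was the last. All 5 lie on the plus strand, which holds 31.2% of the 20223 introns and 64.3% of the 56 introns with a 16-fold higher ratio. The counting rule for strand is not given in the sources used here.

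The 19 other introns, beside the leading one that is by definition the highest of its gene, had retention ratios of 0.333 to 7.31. Among the 19 other introns the interval of the ratio lay above 1 for 3, and these are the introns directly on the 3′ side in zdhhc5a, slc9a7 and naa60. No interval lay below 1. Those of slc9a7 (16 mutant and 3 wildtype reads) and naa60 (8 and 3) had fewer reads than the minimum for a count of changes. With scaling by the library totals the interval in naa60 included 1 (ratio 2.94, 0.705 to 17.2). How often an interval lies above 1 over all introns was not computed, so no pattern is read from these introns. On the 5′ side the intron directly before the leading one had 1 mutant and 2 wildtype reads in zdhhc5a, 2 and 6 in zdhhc17, 35 and 31 in slc9a7, 5 and 3 in tmem30c, and 6 and 5 in naa60. Summed over the 5 genes, listed introns before the leading one had 85 mutant and 78 wildtype reads, and those after it 102 mutant and 60 wildtype reads. In slc9a7 there were 68 mutant and 59 wildtype reads before (ratio 1.58, 1.08 to 2.32) and 16 and 3 after (7.31, 2.07 to 39.3). Fewer gene reads of slc9a7 in the mutant library raise both of its ratios. In zdhhc17 the sums were 3 and 8 before (ratio 0.374, 0.0636 to 1.57) and 8 and 5 after (1.60, 0.456 to 6.25). In zdhhc5a they were 1 and 2 before (ratio 0.480, 0.00813 to 9.24) and 70 and 49 after (1.37, 0.929 to 2.04), and in naa60 8 and 6 before (2.16, 0.652 to 7.62) and 8 and 3 after (4.33, 1.03 to 25.4). The intervals before and after overlap in each of these 4 genes, in slc9a7 only narrowly. Both sides use the same gene reads, and overlap does not show that the sides agree. The comparison of the sides was chosen after the values were seen, and the difference between them was not tested.

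**Figure D3:**
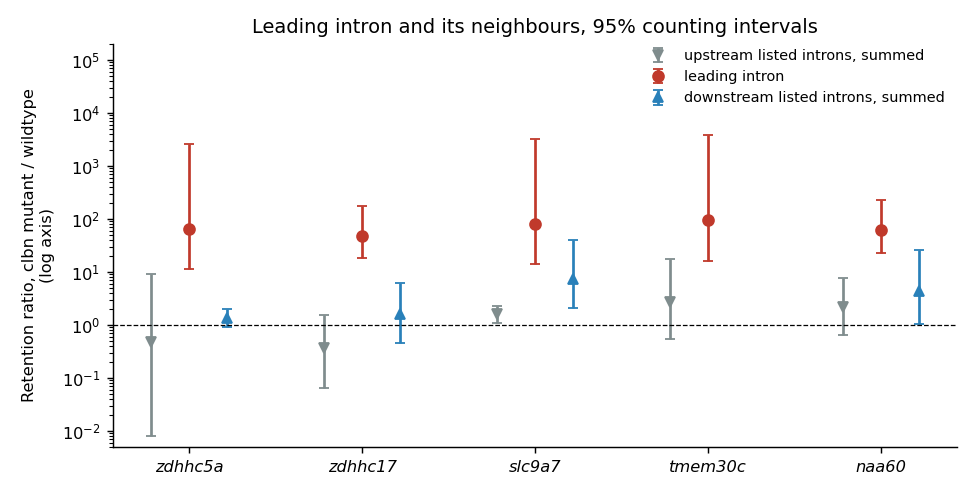
Retention ratio (clbn mutant over wildtype, log axis) of the leading intron (red circle), of all listed introns before it (grey, pointing down) and of all listed introns after it (blue, pointing up), with 95% counting intervals. The leading introns lie at 47.9 to 96.2, and the sums of neighbours at 0.374 to 7.31; tmem30c has no listed intron after its leading one.

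Within a gene, the share of intronic reads in the leading intron does not depend on the gene reads. In naa60 it was 90.4% (84.8 to 94.4%) in the mutant library and 30.8% (9.09 to 61.4%) in the wildtype library. In tmem30c it was 92.1% (82.4 to 97.4%) in the mutant library and 25.0% (0.631 to 80.6%) in the wildtype library, where only 4 intronic reads were listed. For zdhhc5a the share was 48.9% (40.4 to 57.5%) in the mutant library and 1.92% (0.0487 to 10.3%) in the wildtype library. For slc9a7 it was 41.3% (33.1 to 49.8%) in the mutant library and 1.59% (0.0402 to 8.53%) in the wildtype library. The intervals are exact binomial ones. The intron was picked for the highest retention ratio of its gene, which favours a high mutant share and a low wildtype share. The shares are therefore a description. Introns without a read in one of the libraries are not in the table, so these are shares of listed introns. The shares are not adjusted for intron length.

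Transcript levels of the same genes had ratios on both sides of 1, with an interval that includes 1 for zdhhc17. They moved far less than the leading introns. Those introns were picked for a high ratio, so this contrast was largely set in advance. Gene values behave as an RPKM-like scale (reads relative to a unique length and the library total). They were 9.95 in the mutant library and 8.69 in the wildtype library for zdhhc5a (ratio 1.15, 1.05 to 1.25). For zdhhc17 they were 7.33 in the mutant library and 6.64 in the wildtype library (ratio 1.103, 0.960 to 1.27). The exchanger gene slc9a7 had 5.15 in the mutant library and 6.41 in the wildtype library (ratio 0.803, 0.718 to 0.899). Lower in the mutant library by more were tmem30c, with 3.61 against 5.44 in the wildtype library (ratio 0.664, 0.580 to 0.759), and naa60, with 8.83 against 13.0 (ratio 0.678, 0.593 to 0.776). None of the 5 passed 2-fold. Over 10175 genes with at least 20 reads, 0.835% passed 2-fold in the higher direction and 1.09% in the lower.

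**Figure D4:**
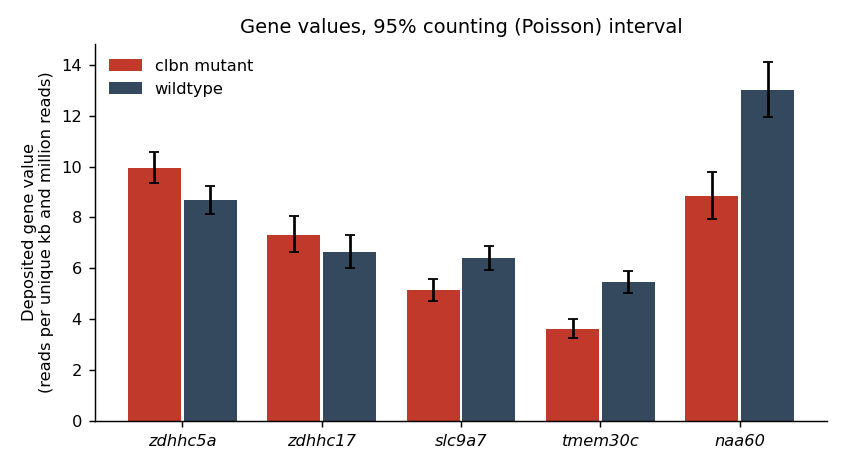
Deposited gene values (vertical axis, reads relative to a unique length and the library total, as in RPKM) in the clbn mutant library (red, left bar) and the wildtype library (dark, right bar), with 95% Poisson intervals of the recovered reads. The palmitoyltransferase genes are slightly higher in the mutant library, and slc9a7, tmem30c and naa60 lower, with ratios of 0.664 to 0.803. For zdhhc17 the interval of the ratio includes 1.

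Among all 10175 genes the log2 ratio of gene values stood at percentile 3.27 for tmem30c (-0.59), 3.68 for naa60 (-0.56) and 9.17 for slc9a7 (-0.32). It stood at percentile 64.3 for zdhhc17 (0.14) and 72.1 for zdhhc5a (0.20), around a median of 0.05 over all genes. In order of level, zdhhc5a was highest in the mutant library, followed by naa60, zdhhc17, slc9a7 and tmem30c. In the wildtype library naa60 came first, before zdhhc5a, zdhhc17, slc9a7 and tmem30c. Levels of zdhhc17 and slc9a7 were close in the wildtype library, at 6.64 and 6.41. The recovered reads behind these values ran from 354 to 1040 in the mutant library and from 411 to 999 in the wildtype library. The leading intron alone held 192 reads in zdhhc17 beside 412 recovered gene reads in the mutant library.

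In whole larvae, fewer cells of a type and less RNA per cell cannot be told apart. Markers of the exocrine pancreas were at least 2-fold lower for 6 of 6 measured genes, with gene values summing to 2450 in the mutant library and 7349 in the wildtype library. Lens markers were at least 2-fold lower for 4 of 4, with sums of 337 in the mutant library and 820 in the wildtype library. Nearly all of these lens sums came from crybb1, at 331 in the mutant library and 802 in the wildtype library. Over all 10175 genes 1.09% were at least 2-fold lower. All 3 intestine markers were lower, with ratios of 0.556 (0.517 to 0.598) for slc15a1b, 0.738 (0.7096 to 0.767) for fabp2 and 0.932 (0.885 to 0.981) for vil1. Measured markers of liver, muscle, neurons, photoreceptors, skin and blood had ratios from 0.717 (cp, liver) to 1.37 (hbae3, blood). The part of tissue make-up in the lower gene values of tmem30c, naa60 and slc9a7 was not tested.

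Introns with more mutant reads were also found in relatives of the 5 genes. Of genes with at least 1 intron of at least 20 reads, 4.24% of 6799 had an intron at least 4-fold higher in the mutant library and 1.56% an intron at least 4-fold lower. With the 5 chosen genes left out, an intron at least 4-fold higher was found in 4 of 10 such genes of the zdhhc family, 1 of 3 of the slc9a family, 2 of 2 of the tmem30 family and 1 of 8 naa genes. The lists of related genes were drawn up with earlier results of these data known. Genes with many introns or deep coverage had more chances to count, and introns with few wildtype reads passed the minimum by their mutant reads.

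For palmitoylation, 16 genes other than zdhhc5a and zdhhc17 had such an intron to count, and 6 of them had one at least 4-fold higher, with 0 at least 4-fold lower. The largest ratio among them was in zdhhc13, the other ankyrin-repeat palmitoyltransferase. Listed intron 5 of zdhhc13 (chromosome 7, 17308008 to 17309650) held 43 mutant and 2 wildtype reads, a retention ratio of 28.1 (7.24 to 240.0). The fourth intron of zdhhc13 was higher as well, with 25 mutant and 4 wildtype reads (ratio 8.16, 2.79 to 32.4). In zdhhc13 and in zdhhc17 the leading intron follows the listed intron before it after 101 bp, a distance found in 0.423% of 43544 successive pairs of listed introns. This distance was picked from many gaps, so its share is no measure of chance. An intron of zdhhc14 had 23 mutant and 1 wildtype reads (ratio 25.5, 3.96 to 1060). Named after their values were seen, zdhhc8b (49 mutant and 3 wildtype reads, ratio 16.04), zdhhc18a (28 and 5, ratio 7.30) and the acyltransferase partner genes golga7ba (67 and 4, ratio 18.4) and golga7 (44 and 5, ratio 9.35) complete the 6. The median log2 retention ratio of the list was 0.32 over 34 introns, or 0.22 over 29 without zdhhc5a and zdhhc17, against 0.03 over all 20223 introns. In gene value the list had a median log2 ratio of 0.15 over 26 genes, with 0 genes past 2-fold. Without zdhhc5a and zdhhc17 it was 0.12 over 24 genes, against 0.05 over all genes.

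The TMEM30 relatives of tmem30c, whose mammalian counterpart TMEM30A serves most flippases, were tmem30ab and tmem30aa. In tmem30ab the fifth of 5 listed introns (chromosome 20, 16699002 to 16700424) held 194 reads in the mutant library and 17 in the wildtype library, a ratio of 13.2 (7.97 to 23.4). Its coefficient was 0.600 in the mutant library and 0.0453 in the wildtype library. In tmem30aa the sixth of 6 (chromosome 17, 50513410 to 50516447) held 162 mutant and 45 wildtype reads, a ratio of 4.94 (3.48 to 7.12). So in all 3 genes it was the last listed intron that led, with only 2 introns listed for tmem30c. This position was noted after the values were seen. How often the last listed intron leads over all genes was not computed, so no pattern is read from it. The family member tmem30b had no intron to count. The flippase and scramblase genes atp9b, xkr4 and plscr3b, the rest of this list with introns to count, had none at least 4-fold higher. The median over 19 introns of the lipid flipping list was 0.21, and 0.06 over 18 without tmem30c. Gene values of tmem30aa were also lower in the mutant library (ratio 0.802, 0.733 to 0.877), while tmem30ab (0.949, 0.868 to 1.04) and tmem30b (0.997, 0.893 to 1.11) were near 1.

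Among ion exchangers and proton pumps other than slc9a7, 3 of 23 genes had an intron at least 4-fold higher and 0 an intron at least 4-fold lower. The closest relative of slc9a7 among them is slc9a6b, an endosomal exchanger gene. Listed intron 5 of 6 in slc9a6b (chromosome 10, 27223517 to 27225806) held 29 mutant and 3 wildtype reads, a ratio of 11.5 (3.53 to 59.3). In slc9a6b as in slc9a7 the next listed intron begins 106 bp after the leading one, a distance found in 0.503% of successive pairs. Where no unlisted intron lies between, such a distance is the length of an exon. The distance of 106 bp was likewise picked from many gaps, so its share is no measure of chance. The catalytic subunit gene of the V-ATPase atp6v1aa had 55 mutant and 3 wildtype reads in listed intron 2 (ratio 22.6, 7.33 to 113), and the chloride exchanger gene clcn7 had 40 and 6 (ratio 6.48, 2.70 to 18.8). The other subunit genes of the V-ATPase on the list had no intron past 4-fold. The list median was 0.07 over 102 introns, and 0.03 over 98 without slc9a7. Gene values of the list had a median log2 ratio of -0.01, with 0 of 27 genes past 2-fold.

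Of the N-terminal acetylation genes, naa15b, which codes for the ribosome-binding subunit of the NatA complex, had higher introns beside naa60. Listed intron 3 of naa15b had 29 mutant and 3 wildtype reads (ratio 7.85, 2.41 to 40.4) and listed intron 2 had 66 and 11 (ratio 4.88, 2.52 to 10.3). Apart from naa60, 1 of 11 genes of the list had an intron at least 4-fold higher, and 0 had one at least 4-fold lower. The list median was 0.23 over 24 introns, or 0.21 over 23 without naa60. By mutant over wildtype ratio of gene values naa60 was the lowest of the 14 genes of the list, and naa38 the highest at 1.44 (1.19 to 1.75).

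Genes of Golgi structure and coats, a list that holds none of the 5 genes, had an intron at least 4-fold higher in 3 of 29 genes. The tether gene uso1 had 25 mutant and 2 wildtype reads (ratio 12.9, 3.05 to 114), the SNARE gene gosr1 47 and 6 (ratio 7.28, 3.02 to 21.2) and the COPI coat gene copb2 19 and 4 (ratio 4.48, 1.48 to 18.1). Of the 13 introns of copb2 with at least 20 reads, another went the other way. It had 9 mutant and 28 wildtype reads (ratio 0.303, 0.126 to 0.662). The list median of -0.11 over 86 introns lay below that of all introns. In the log2 ratio of gene values 37 of 42 genes of this list (88.1%) were above 0, against 59.1% of all 10175 genes. The list median was 0.21 against 0.05 over all genes, or 0.16 where scaling sets the median of all genes to 0. The mannosidase gene man2a1 alone passed 2-fold, at 2.69 (1.19 to 6.64) on 22 mutant and 9 wildtype reads recovered.

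**Figure D5:**
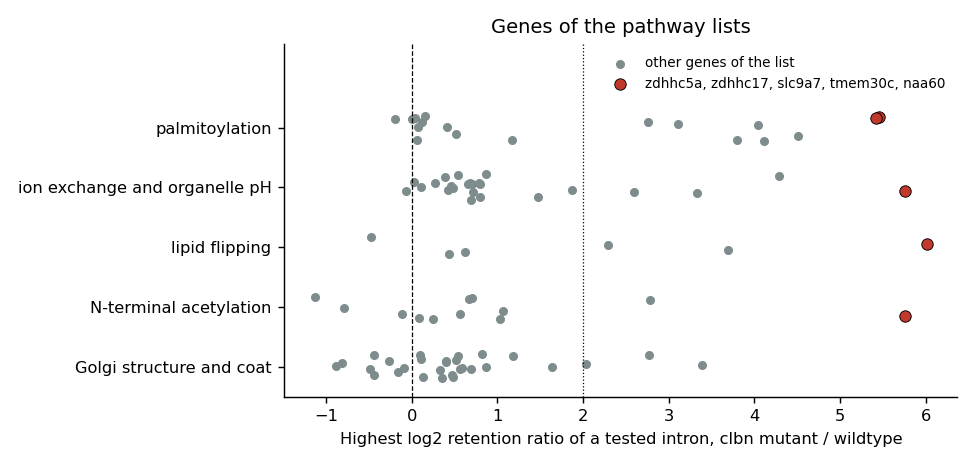
Highest log2 retention ratio (clbn mutant over wildtype, horizontal axis) among the introns with at least 20 reads of each gene, by list. Red points are the 5 genes described here, grey points the other genes, and the dotted line marks 4-fold; each list has 1 to 6 grey points beyond it.

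Genes most like the 5 were sought by the distance in log2 gene value in each library and in the log2 retention ratio of the intron with the most reads, over 2 libraries and 6794 other genes. For zdhhc5a and zdhhc17 the nearest were the same pair, kifap3a (87 mutant and 3 wildtype reads) and pde6d (258 mutant and 9 wildtype reads). For naa60 they were a gene listed without a symbol and the ubiquitin ligase gene rnf175 (100 mutant and 1 wildtype reads). The nearest to tmem30c were another gene without a symbol (49 mutant and 1 wildtype reads) and pde6d, which was 1.31 away. In slc9a7 the intron with the most reads is the sixth and not the leading one, so its nearest genes, slc1a6 and ripor1, had log2 retention ratios of 0.62 and 0.70. For zdhhc5a, zdhhc17, naa60 and tmem30c it is the leading one, and the distance includes its ratio. That their nearest genes also had an intron with many more mutant reads was therefore set in advance.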

How the data were processed

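Poly(A) RNA of about 60 pooled larvae of 1 genotype was selected in 2 rounds and made into SOLiD libraries with 18 cycles of amplification, per the labels' protocols. The build is Zv9, per the submitters' processing notes. How reads were aligned, and how reads with several matches were counted, is not given in the sources used here. Values per intron are read counts that the authors deposited without normalization, and no listed intron has fewer than 1 read in a library. Per the file headers, the authors scaled these to RPuKM, which is RPKM with the unique length of the intron. Library totals were computed from counts, lengths and RPuKM. Gene values carry no unit in the deposited table; they came out as whole reads over a whole length within 1e-06 bp for 10223 of 10223 genes, and the smallest whole solution was used, which can be too low by a common factor and then widens intervals. For 1893 introns no gene value is given, and they were not used. Start positions were raised by 1 to count from 1. Gene symbols were looked up by Refseq ID in the annotation of GRCz12tu, without its positions, and 95.8% of IDs matched.

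Groups were taken from the genotype labels. Retention ratios divide intronic by gene reads, with exact conditional 95% intervals that count the error of both; intervals of gene values and of ratios scaled by library totals are exact (Clopper-Pearson), as are those of shares. A change was counted at 2-fold with at least 20 reads over both libraries and a pseudocount of 0.5. No test was made, since each group has 1 library and the genes were chosen from this contrast; the calculation was tested on simulated data. The members and lists were chosen with earlier results of these data known. Named from each list were genes with an intron past 4-fold or a gene value past 2-fold, at most the 4 most extreme, and otherwise the highest and the lowest. Python 3.11.15, SciPy 1.17.1 and, for TMM factors, edgeR 4.0.16 were used.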

Additional observations from a re-analysis of the deposited data

How the results depend on the processing

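The leading introns were picked for the highest retention ratio of their gene, with 58 to 192 mutant reads against 1 to 4 wildtype reads. Their direction under other settings was therefore largely set in advance. All 5 leading introns were higher in the mutant library under every alternative run. Their log2 ratios were 5.42 to 6.01 as reported, 3.55 to 4.80 with a pseudocount of 5, 5.20 to 5.65 with scaling by the library total, and 4.27 to 5.65 with scaling by the other listed introns of the gene. The lowest of the last range is naa60, at 4.27, outside its counting interval. By construction that scaling lowers all introns beside a leading one, and the fourth intron of naa60 turned to -2.64. With it 4 introns of the 5 genes were at least 2-fold lower, where the count as reported was 0. With a minimum of 5 reads 11 introns of the 5 genes were at least 2-fold higher and 1 lower, and without a minimum 12 and 1 of all 24. Over all genes the counts of higher and lower introns were 1637 and 1319 as reported, 1013 and 617 with a pseudocount of 5, 7367 and 6487 with a minimum of 5 reads, and 358 and 176 with a minimum of 50 reads. In the lists, introns at least 2-fold higher and lower numbered 13 and 1 for palmitoylation (5 and 0 with a minimum of 50 reads), 7 and 3 for ion exchange and pH (3 and 1), 4 and 1 for lipid flipping (3 and 0), 5 and 3 for N-terminal acetylation (2 and 1) and 7 and 4 for Golgi structure (3 and 0). Fewer introns are counted with that minimum. With the minimum of 20 reads and without the 5 genes, palmitoylation had 10 and 1 of 29 introns. Ion exchange and pH had 5 and 3 of 98, lipid flipping 3 and 1 of 18, and N-terminal acetylation 4 and 3 of 23. The Golgi list has 86 introns and none of the 5 genes. Over all 20223 introns 8.09% were higher and 6.52% lower. Counts at the minimum of 5 or 50 reads, and those without a minimum, are given without a share over all introns. Nothing is read from them. Gene value ratios of the 5 genes stayed within their counting intervals under the 3 other scalings, which shift all genes by -0.05 to 0.02 on the log2 scale. Wildtype counts of 1 to 4 reads set the width of the intervals of leading introns. No paired analysis was possible because each genotype has 1 library.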
